A study of Rattus norvegicus with 23 samples.

Results

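A set of 9 genes of the plasminogen and coagulation systems was followed in microglia of newborn rats after inflammation, hypoxia-ischemia (HI) or both. They were taken by name from the 20301 genes of the deposited log2 table, and all 9 were measured. Plat, Plau, Plaur and Serpine2 belong to the fibrinolytic side, F3 and F10 to the start of coagulation, Thbd and Procr to the anticoagulant protein C pathway, and Thbs1 encodes thrombospondin. The table held 23 RNA sequencing libraries of CD11b/c bead-isolated cells from Wistar rats of both sexes operated on at postnatal day 7, with cells taken 24 h after the operation. Sham animals (n = 6) received no injection and sham surgery. LPS animals (n = 5) received 0.1 mg/kg lipopolysaccharide of E. coli O55:B5 intraperitoneally 4 h before sham surgery. NaCl/HI animals (n = 6) received NaCl, then ligation of the left common carotid artery and 50 min of hypoxia at 8% oxygen, and LPS/HI animals (n = 6) received LPS before the same procedure. In the Sham and LPS groups a sample was the entire brain of 1 pup, whereas in both HI groups it was the pooled ipsilateral hemispheres of 2 pups. HI therefore cannot be told apart from hemisphere and pooling, nor LPS against Sham from the injection itself.

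Fibrin clots are dissolved by plasmin, which is cut from plasminogen by tissue-type (Plat) or urokinase-type (Plau) plasminogen activator. Urokinase binds a receptor on the cell surface (Plaur), and protease nexin-1 (Serpine2) inhibits thrombin and both activators. Coagulation starts when tissue factor (F3) meets factor VII and activates factor X (F10), while thrombomodulin (Thbd) and the endothelial protein C receptor (Procr) turn thrombin toward activation of protein C, which dampens clotting. In brain, tissue factor and protease nexin-1 are known products of astrocytes, and Plat, Thbd and Procr are known in vascular endothelium.

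The values are regularised log2 values from which the authors had removed 3 surrogate variables, so read depth is unknown and fold changes are understated for weakly expressed genes. Levels are compared within a gene, not between genes. All 9 microglial markers were measured, and the mean of that list ranged from 13.9 to 14.3 over the samples, with Tmem119 the lowest marker at a mean of 12.5. Markers of endothelium, fibroblasts, astrocytes, neutrophils and other cell types were measured as well, and the lowest mean of any listed marker was 3.70 (Mog). One library stood apart: in LPS/HI replicate 2 the removal of the surrogate variables left a share of 0.0653 of its own deviation from the group mean. The other 22 libraries had 0.553 to 0.821, on a scale where a removal of nothing gives 0.833, or 0.8 in LPS. In LPS/HI replicate 2 the SD of the deviations over all genes was 0.0489, against 0.0910 to 0.164 in the others. The calls that involve LPS/HI are therefore also given without it, and no uncalled difference of the 9 genes passed when it was left out. Over all genes its removal took the calls from 1781 to 1282 in LPS/HI against Sham, from 394 to 222 against LPS, from 41 to 6 against NaCl/HI and from 220 to 145 in the interaction described with Plat. In bulk samples, fewer cells of a type and less RNA per cell cannot be told apart. A sample stood for 1 pup or 1 pair of pups, and litters are not given in the sources used here, so p-values measure the spread between these samples.

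RefSeq promoter windows (GRCr8 assembly) were found for 6 of the 9 genes, namely Plaur, Plau, F10, Procr, Serpine2 and Thbs1. The 250 bases before the start are shown for F10, both of whose called differences held in every other test and scaling tried, and for urokinase and its receptor as a ligand and receptor pair. Capitals mark matches on either strand to an AP-1 site, a GC box, a TATA box or the NF-kappaB consensus, the first 3 spelled out with the matches, and these patterns were chosen after values were seen. The F10 window lies at chr16:83190281-83190530 on the minus strand, the Plau window at chr15:3511988-3512237 on the minus strand, and the Plaur window at chr1:89181113-89181362 on the plus strand.
F10: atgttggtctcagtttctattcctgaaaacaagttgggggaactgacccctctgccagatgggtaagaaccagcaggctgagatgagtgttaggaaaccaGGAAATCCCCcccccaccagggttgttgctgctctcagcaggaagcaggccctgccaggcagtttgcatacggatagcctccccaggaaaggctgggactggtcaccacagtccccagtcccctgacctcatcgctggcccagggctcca
Plau: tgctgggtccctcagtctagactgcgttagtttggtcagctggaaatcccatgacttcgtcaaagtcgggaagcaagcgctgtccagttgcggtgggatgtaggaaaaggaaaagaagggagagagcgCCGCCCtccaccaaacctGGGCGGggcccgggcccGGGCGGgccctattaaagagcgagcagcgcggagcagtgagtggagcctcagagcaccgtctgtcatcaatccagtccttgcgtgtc
Plaur: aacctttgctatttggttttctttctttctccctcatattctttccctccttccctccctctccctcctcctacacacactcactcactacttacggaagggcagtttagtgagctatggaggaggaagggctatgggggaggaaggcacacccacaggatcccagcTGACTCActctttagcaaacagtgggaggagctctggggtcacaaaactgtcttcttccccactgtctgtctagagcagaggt
The F10 window holds 1 match to the NF-kappaB consensus, 150 to 141 bases before the start, and 6.33% of the 33469 windows of this length hold at least 1. The Plaur window holds 1 AP-1 match (letters TGANTCA), 83 to 77 bases before the start, and these letters occur in 6.34% of all windows. The Plau window holds 3 GC boxes (letters GGGCGG), of which the first begins 122 bases before the start, and 30.5% of all windows hold at least 1. The TATA box, searched as the letters TATAAA, was in none of the 6 windows and in 12.9% of all. A match is a run of letters, not a binding site.

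**Figure D1:**
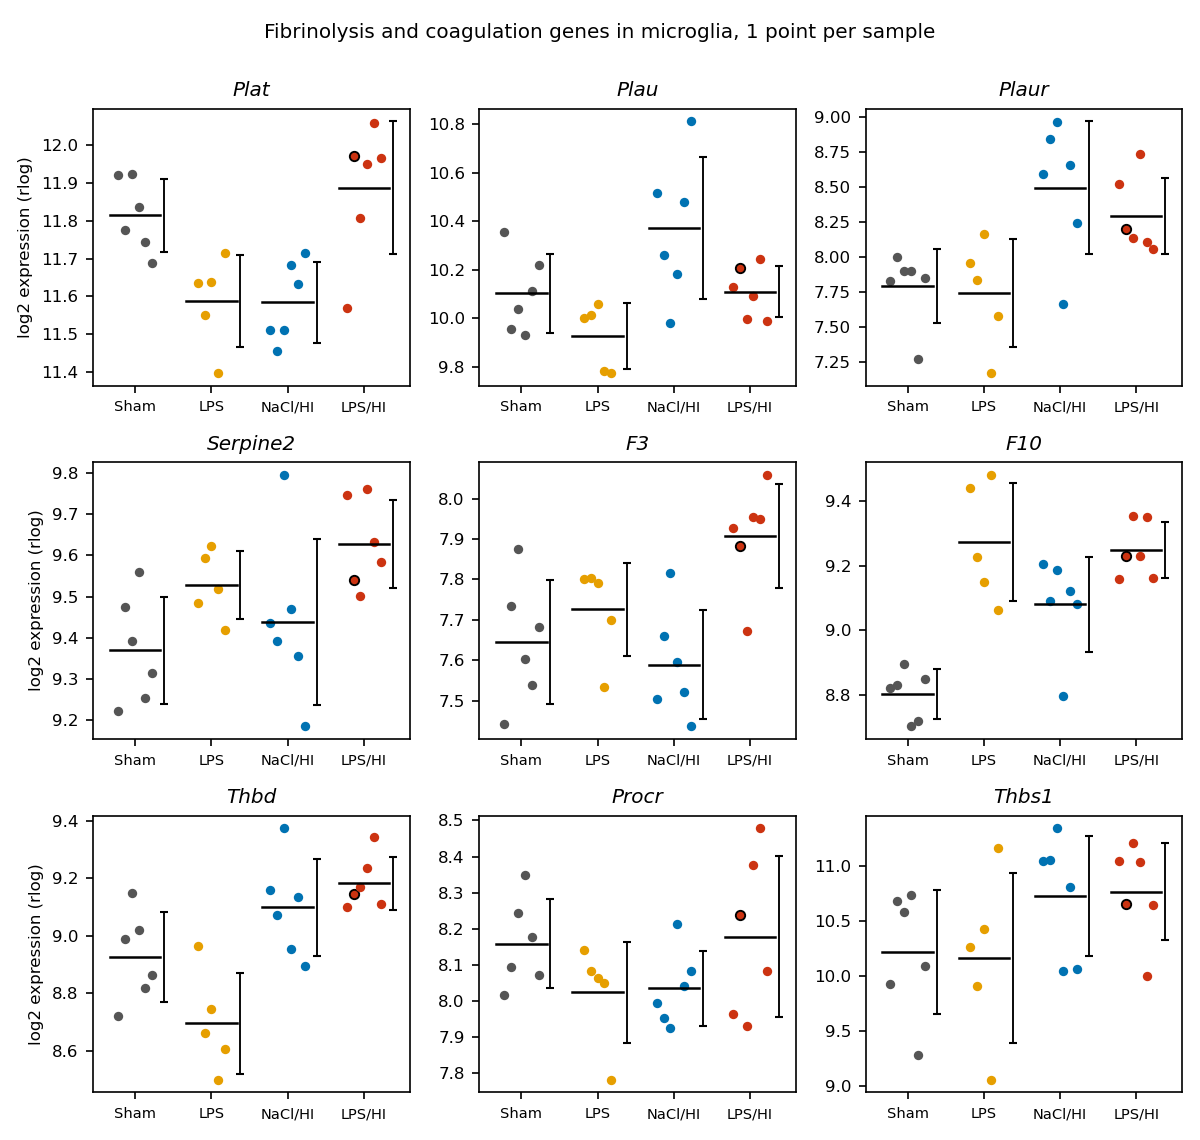
Regularised log2 expression (y axis, a separate scale per gene) of the 9 genes in each sample of the 4 groups (x axis). Each point is 1 sample, lines are group means, bars are ± 1 SD, and the black-edged point is LPS/HI replicate 2. The 6 Sham samples of F10 lie between 8.70 and 8.90, below all LPS and LPS/HI samples.

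Of 54 combinations of a gene and a pair of groups, 10 passed an adjusted p of 0.05 in limma, none of them with a fold above 2, and Procr and Thbs1 passed in none. LPS against Sham called 2 of the 9 genes, F10 higher and Plat lower, where 17.8% of all genes were called. LPS/HI against Sham called 3 higher (F10, F3 and Serpine2) and none lower, where 5.3% of all genes were called higher and 3.48% lower. LPS/HI against LPS called 2 higher (Thbd and Plat), where 1.22% of all genes were called higher, and LPS against NaCl/HI called 3 lower (Plau, Plaur and Thbd), where 3.66% were called lower. NaCl/HI against Sham and LPS/HI against NaCl/HI called none, where 0.00985% and 0.202% of all genes were called. At an unadjusted p under 0.05 these comparisons held 4 and 5 of the 9 genes, where 14.8% and 10.6% of all genes had such a p, and the exact Wilcoxon test called 0 of all 20301 genes in either, so it says nothing about these 9. Single libraries moved the limma counts over all genes: NaCl/HI against Sham went from 2 to 590 called genes without NaCl/HI replicate 4, 12 without LPS replicate 4 and 10 without LPS replicate 5, and to 0 or 1 in 15 of the other fits. LPS/HI against NaCl/HI went from 41 to 135 without LPS/HI replicate 1 and down to 1 without NaCl/HI replicate 1. LPS/HI against Sham went from 1781 to 885 when LPS/HI replicate 5 was left out and 2548 for LPS/HI replicate 1, with 1061 to 1162 without Sham replicate 1, 5 or 6 or LPS/HI replicate 3 or 4. LPS/HI against LPS went from 394 to 81 without LPS replicate 4, 132 without LPS replicate 2 and 176 to 248 without LPS replicate 5 or LPS/HI replicate 1, 2, 4 or 5. LPS against NaCl/HI went from 1824 to 1099 without LPS replicate 2 and 1165 without LPS replicate 4. The interaction went from 220 to between 35 (without LPS replicate 2) and 496 (without NaCl/HI replicate 4). The balance of directions over all genes depended on the scaling: with median centring LPS/HI against Sham called 849 higher and 881 lower in place of 1075 and 706, LPS/HI against LPS 198 and 404 in place of 248 and 146, LPS/HI against NaCl/HI 17 and 14 in place of 31 and 10, and LPS against Sham 2406 and 1128 in place of 2072 and 1534. Calls with a fold above 2 were rare over all genes too: 0.069% in LPS and 0.00493% in NaCl/HI against Sham, 0.0936% in LPS/HI against Sham, 0.0345% in LPS/HI against LPS, 0.0148% in LPS/HI against NaCl/HI and 0.0591% in LPS against NaCl/HI. The comparisons share groups, so their counts are not independent of each other.

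**Figure D2:**
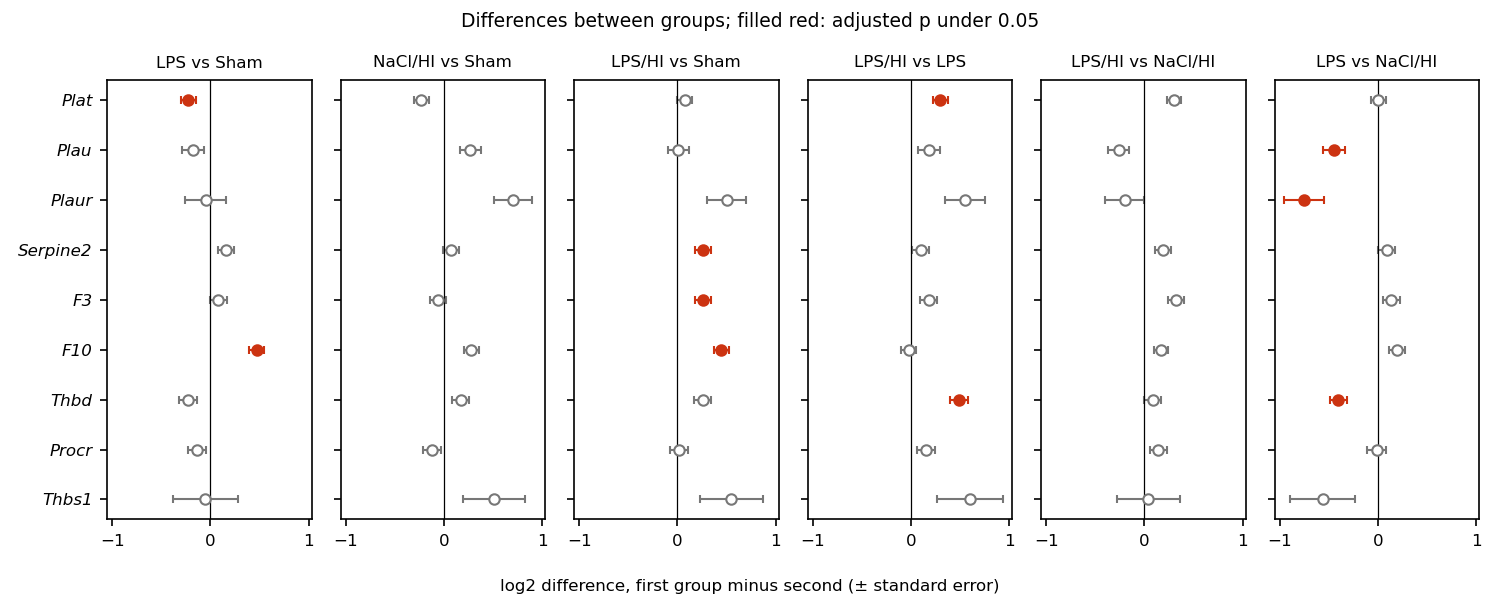
Log2 difference of each gene (rows) in the 6 comparisons (panels), first group minus second, with standard errors from the limma fit. Filled red points have an adjusted p under 0.05; F10 is 0.47 higher in LPS than in Sham and Plaur 0.75 lower in LPS than in NaCl/HI.

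Plat, the tissue-type activator, was lower after LPS alone, whereas LPS/HI against Sham gave 0.07 ± 0.07 (adjusted p = 0.563). Its level was between 11.69 and 11.92 in Sham (median 11.80), and 11.63, 11.55, 11.64, 11.40 and 11.72 in the LPS replicates 1 to 5. NaCl/HI samples lay between 11.46 and 11.71 (median 11.57) and LPS/HI samples between 11.57 and 12.06 (median 11.96). The LPS and NaCl/HI samples thus lay mostly below Sham, and LPS/HI overlapped with every group. Plat fell by 0.23 ± 0.08 (SE) in LPS against Sham (adjusted p = 0.0461, 5 of 5 samples below the Sham mean) and LPS/HI exceeded LPS by 0.30 ± 0.08 (adjusted p = 0.0476, 5 of 6 samples above the LPS mean). Means rose in the order NaCl/HI, LPS, Sham and LPS/HI, and of the neighbours LPS and Sham alone differed past the threshold. The difference in NaCl/HI against Sham was of the same size, -0.23 ± 0.07, with an adjusted p of 0.186. LPS/HI exceeded NaCl/HI by 0.30 ± 0.07 (adjusted p = 0.0889), which passed without LPS/HI replicate 1 (0.37, adjusted p = 0.0183). The LPS difference with HI minus that without HI was 0.53 ± 0.11 (adjusted p = 0.0270), the only 1 of the 9 genes called for this interaction, where 1.08% of all genes were called. In libraries 1 to 12 (replicates 1 to 3) this value was 0.56 and in libraries 13 to 23 (the remaining replicates) 0.51. LPS against Sham was -0.27 and -0.20 in these library sets, and LPS/HI against LPS 0.18 and 0.43. Without LPS/HI replicate 2 the interaction was 0.51 (adjusted p = 0.0386) and LPS/HI against LPS 0.28 (adjusted p = 0.0791). The part of the interaction without HI also holds the injection, which Sham did not receive. Its parts differ in hemisphere and pooling as well, so these cannot be told apart from a different LPS difference with HI.

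The Plat calls lay close to the threshold. Its fall in LPS against Sham was lost in 12 of 23 fits that each left out 1 sample, and was kept only without Sham replicate 6, LPS replicate 5, NaCl/HI replicate 2, 3, 4 or 6, or LPS/HI replicate 1, 2, 3, 5 or 6. LPS/HI against LPS was kept in 8 of 23, those without Sham replicate 1, LPS replicate 5, NaCl/HI replicate 2, 3, 4 or 6, or LPS/HI replicate 1 or 3. The interaction was lost without Sham replicate 4, LPS replicate 2 or 4, NaCl/HI replicate 1 or 2, or LPS/HI replicate 4, with adjusted p up to 0.0607. Of the other alternatives the first call was lost in 3 of 11, the second in 6 of 11 and the interaction in 1 of 9. Endothelial markers were set beside Plat. The mean of the 9 measured endothelial genes ranged from 11.19 to 11.46 in Sham, 11.07 to 11.33 in LPS, 11.18 to 11.30 in NaCl/HI and 11.24 to 11.55 in LPS/HI. Of these markers 3 fell and 1 rose in LPS against Sham, and 2 rose in LPS/HI against LPS, Flt1 and Esam. With the endothelial mean as a term in the fit, the Plat interaction was 0.40 (adjusted p = 0.230), LPS against Sham -0.16 (adjusted p = 0.210) and LPS/HI against LPS 0.21 (adjusted p = 0.434). The same term took the calls over all genes from 220 to 0 in the interaction and from 394 to 4 in LPS/HI against LPS, so the loss was not particular to Plat. In LPS against Sham it called 3387 genes, against 3606 without it.

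Plau and Plaur, urokinase and its receptor, had their highest group means in NaCl/HI. Plau ranged from 9.93 to 10.36 in Sham (median 10.07), from 9.98 to 10.81 in NaCl/HI (median 10.37) and from 9.99 to 10.24 in LPS/HI (median 10.11). The LPS replicates 1 to 5 had 10.001, 10.01, 10.06, 9.78 and 9.77. All 5 LPS samples lay below the NaCl/HI mean, and only the lowest NaCl/HI sample overlapped with them. Plau was 0.45 ± 0.11 lower on the log2 scale in LPS than in NaCl/HI (difference -0.45, adjusted p = 0.0148). This was -0.23 in libraries 1 to 12 and -0.71 in libraries 13 to 23, and it passed in each of 23 fits that left out 1 sample (adjusted p up to 0.0477). NaCl/HI against Sham gave 0.27 ± 0.11 (adjusted p = 0.253) and LPS/HI against NaCl/HI -0.26 ± 0.11 (adjusted p = 0.370). The means stood in the order LPS, Sham, LPS/HI and NaCl/HI, with no neighbours apart past the threshold. Of the 9 microglial markers 2 fell in LPS against NaCl/HI, and with the mean of that list as a term the Plau difference was -0.40 (adjusted p = 0.113), where the calls over all genes went from 1824 to 830. That mean ranged from 13.91 to 14.08 in LPS and from 13.99 to 14.21 in NaCl/HI.

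Plaur varied more between samples than Plau. It lay between 7.27 and 8.001 in Sham (median 7.87), between 7.67 and 8.96 in NaCl/HI (median 8.63) and between 8.06 and 8.73 in LPS/HI (median 8.17), and the LPS replicates 1 to 5 had 7.96, 7.84, 8.16, 7.17 and 7.58. All 6 LPS/HI samples lay above all 6 Sham samples, as for 6.37% of all genes, and NaCl/HI replicate 4 was the lone NaCl/HI sample within the Sham range. Plaur was lower in LPS than in NaCl/HI, with a difference of -0.75 ± 0.21 (adjusted p = 0.0253, 5 of 5 samples below the NaCl/HI mean). This value was -0.81 in both sets of libraries. It was lost without NaCl/HI replicate 2 or 3 or LPS replicate 4 or 5, with adjusted p up to 0.0881, and with only the 2 groups fitted (adjusted p = 0.0585), a fit that called 1236 genes. LPS/HI against Sham gave 0.50 ± 0.20 (adjusted p = 0.107) and LPS/HI against LPS 0.55 ± 0.21 (adjusted p = 0.173). NaCl/HI against Sham gave 0.70 ± 0.20 (adjusted p = 0.152), and without NaCl/HI replicate 4 it was 0.87 and passed (adjusted p = 0.0152), in a fit that called 590 genes in place of 2. The order of the group means was LPS, Sham, LPS/HI and NaCl/HI, and no neighbours in it differed past the threshold. The mean of the 7 monocyte markers ranged from 9.02 to 9.41 in LPS and from 8.92 to 9.95 in NaCl/HI, with 1 marker called higher (Plac8) and 1 lower (Fn1) in LPS. With that mean as a term Plaur was still lower in LPS (-0.54, adjusted p = 0.0282), where the calls over all genes went from 1824 to 1454.

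Serpine2, the protease nexin, was higher in LPS/HI than in Sham by a small margin. Sham samples lay between 9.22 and 9.56 (median 9.35), NaCl/HI between 9.18 and 9.80 (median 9.41) and LPS/HI between 9.50 and 9.76 (median 9.61), and the LPS replicates 1 to 5 had 9.49, 9.59, 9.62, 9.52 and 9.42. All 6 LPS/HI samples were above the Sham mean, while 1 Sham sample reached into their range. The difference was 0.26 ± 0.08 (adjusted p = 0.0487), with 0.23 and 0.28 in the library sets. It was lost in 4 of 11 alternatives (no variance trend, median centring, quantile normalization and the exact Wilcoxon test, adjusted p up to 0.0800). It passed in 5 of 23 fits that left out 1 sample, those without Sham replicate 4, LPS replicate 5 or NaCl/HI replicate 3, 4 or 6, and without LPS/HI replicate 2 it was 0.28 (adjusted p = 0.0516). Means rose in the order Sham, NaCl/HI, LPS and LPS/HI, with no neighbours apart past the threshold. The mean of the astrocyte list ranged from 10.60 to 11.10 in Sham and from 11.002 to 11.30 in LPS/HI, and 1 of its 6 genes, Gfap, was called higher, where 5.3% of all genes were. In the same comparison 4 of 6 fibroblast, 4 of 9 neutrophil, 3 of 7 monocyte, 1 of 9 endothelial and 1 of 7 mural markers were called higher. Called lower were 1 of 9 microglial, 1 of 5 platelet, 1 of 7 border macrophage and 2 of 6 neuronal markers, where 3.48% of all genes were. With the astrocyte mean as a term, Serpine2 differed by 0.08 (adjusted p = 0.356), and the calls over all genes went from 1781 to 658.

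F3, tissue factor, was also higher in LPS/HI than in Sham. It ranged from 7.44 to 7.87 in Sham (median 7.64), from 7.44 to 7.81 in NaCl/HI (median 7.56) and from 7.67 to 8.06 in LPS/HI (median 7.94), and the LPS replicates 1 to 5 had 7.80, 7.80, 7.79, 7.53 and 7.70. In LPS/HI 5 of the 6 samples lay above every Sham, LPS and NaCl/HI sample, and replicate 3 lay among them. F3 rose by 0.26 ± 0.08 against Sham (adjusted p = 0.0475), with 0.14 in libraries 1 to 12 and 0.38 in libraries 13 to 23. The difference against NaCl/HI was 0.32 ± 0.08 with an adjusted p of 0.102, and against LPS 0.18 ± 0.09 with an adjusted p of 0.308. Means rose in the order NaCl/HI, Sham, LPS and LPS/HI, again with no neighbours apart past the threshold. The call against Sham was lost in 3 of 11 alternatives (adjusted p up to 0.0813) and held in 7 of 23 fits, those without Sham replicate 3, LPS replicate 4 or 5, NaCl/HI replicate 3, 4 or 6, or LPS/HI replicate 3. Without LPS/HI replicate 2 it was 0.27 (adjusted p = 0.0626), and with the astrocyte mean as a term 0.15 (adjusted p = 0.291). The other marker lists with calls in this comparison are those given for Serpine2, and their part in the F3 difference was not tested.

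F10, coagulation factor X, had the differences with the smallest adjusted p of the 9 genes. Sham samples lay between 8.70 and 8.90 (median 8.83), and the LPS replicates 1 to 5 had 9.44, 9.23, 9.15, 9.48 and 9.06. NaCl/HI samples ranged from 8.80 to 9.21 (median 9.11) and LPS/HI samples from 9.16 to 9.35 (median 9.23). Neither LPS nor LPS/HI overlapped with Sham, as for 13.9% and 6.37% of all genes, and among NaCl/HI samples replicate 4 alone lay within the Sham range. F10 rose by 0.47 ± 0.08 in LPS (1.39-fold, adjusted p = 0.000277) and by 0.45 ± 0.07 in LPS/HI (1.36-fold, adjusted p = 0.00223). The library sets gave 0.42 and 0.52 for LPS, and 0.40 and 0.49 for LPS/HI. Both calls held in each of 23 fits that left out 1 sample and in all 11 other alternatives, and without LPS/HI replicate 2 the second was 0.45 (adjusted p = 0.00400). NaCl/HI against Sham gave 0.28 ± 0.07 (adjusted p = 0.144), and without NaCl/HI replicate 4 it was 0.33 and passed (adjusted p = 0.0174), in the fit that called 590 genes in place of 2. The group means rose in the order Sham, NaCl/HI, LPS/HI and LPS, and the 3 upper groups did not differ past the threshold. Microglial markers went the other way, with 5 of 9 lower in LPS than in Sham and 1 of 9 lower in LPS/HI than in Sham. Markers lower in LPS were also found for border macrophages (3 of 7, with 1 higher), endothelium (3 of 9, with 1 higher), neutrophils (2 of 9, with 1 higher), platelets (2 of 5) and neurons (3 of 6), where 7.56% of all genes were lower. The mean of the microglial list was 14.05 to 14.32 in Sham and 13.91 to 14.08 in LPS. With that mean as a term, F10 was 0.40 higher in LPS (adjusted p = 0.0412) and 0.41 higher in LPS/HI (adjusted p = 0.0294), where the calls over all genes went from 3606 to 748 and from 1781 to 266.

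Thbd, thrombomodulin, was lowest in LPS and higher in both HI groups. The LPS replicates 1 to 5 had 8.96, 8.66, 8.75, 8.50 and 8.61, while Sham ranged from 8.72 to 9.15 (median 8.92), NaCl/HI from 8.90 to 9.37 (median 9.10) and LPS/HI from 9.10 to 9.34 (median 9.16). All LPS/HI samples lay above all LPS samples, as for 4.17% of all genes, and LPS replicate 1 alone reached into the NaCl/HI range. LPS/HI exceeded LPS by 0.49 ± 0.09 (1.40-fold, adjusted p = 0.00914), with 0.35 and 0.68 in the library sets. LPS was below NaCl/HI, with a difference of -0.40 ± 0.09 (adjusted p = 0.00704) and -0.41 and -0.44 in the library sets. Both held in each fit that left out 1 sample, and without LPS/HI replicate 2 the first was 0.49 (adjusted p = 0.0166). Against Sham, Thbd differed by -0.23 ± 0.09 in LPS (adjusted p = 0.0815) and by 0.26 ± 0.09 in LPS/HI (adjusted p = 0.0649). The LPS difference passed without Sham replicate 1 (-0.27, adjusted p = 0.0493) or LPS replicate 1 (-0.30, adjusted p = 0.0311), and the LPS/HI difference without Sham replicate 3 (0.30, adjusted p = 0.0363) or NaCl/HI replicate 3 (0.26, adjusted p = 0.0457). The LPS difference also passed with quantile normalization (adjusted p = 0.0440), 19 residual degrees of freedom (adjusted p = 0.0487) and array weights (adjusted p = 0.0398), where 3415, 4877 and 4956 genes were called. Markers of several cell types passed in the same comparisons. Of 6 fibroblast markers 3 were higher in LPS/HI than in LPS and 3 lower in LPS than in NaCl/HI, all of them collagens or decorin. Of 9 endothelial markers 2 (Flt1 and Esam) were higher in LPS/HI than in LPS, as were 1 of 7 mural and 1 of 9 neutrophil markers, the latter list with a median difference of 0.84. The fibroblast mean was 9.28 to 9.56 in LPS, 9.38 to 9.71 in NaCl/HI and 9.57 to 9.75 in LPS/HI. With the fibroblast mean as a term, Thbd differed by 0.31 between LPS/HI and LPS (adjusted p = 0.393) and differed by -0.27 between LPS and NaCl/HI (adjusted p = 0.142). Over all genes the same term took the calls from 394 to 1 and from 1824 to 771, so the loss was not particular to Thbd.

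Procr, the protein C receptor, passed in no comparison. Its values lay between 8.02 and 8.35 in Sham (median 8.14), between 7.93 and 8.21 in NaCl/HI (median 8.02) and between 7.93 and 8.48 in LPS/HI (median 8.16), and the LPS replicates 1 to 5 had 8.14, 8.08, 8.06, 8.05 and 7.78. The 4 groups overlapped. The largest difference was 0.15 ± 0.09 between LPS/HI and LPS (adjusted p = 0.475).

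Thbs1, a matrix glycoprotein of platelets and activated myeloid cells, had the widest spread. Values ran from 9.28 to 10.74 in Sham (median 10.34), from 10.04 to 11.35 in NaCl/HI (median 10.93) and from 10.005 to 11.22 in LPS/HI (median 10.85), and the LPS replicates 1 to 5 had 10.27, 9.91, 10.43, 9.06 and 11.17. Means were higher in both HI groups, yet all 4 groups overlapped. LPS/HI against LPS gave 0.60 ± 0.33 (adjusted p = 0.409) and LPS/HI against Sham 0.55 ± 0.32 (adjusted p = 0.271), so neither passed with this spread. The size of difference that could pass was not computed.

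The variation between samples followed the marker lists of different cell types, as described here by correlations over 23 samples that share groups, libraries and the removed surrogate variables. Serpine2 went with the astrocyte mean (Pearson's r = 0.92, and 0.91 for deviations from the group means). F3 had 0.63 with astrocytes, 0.51 with mural cells and 0.51 with fibroblasts, and for deviations 0.59, 0.64 and 0.56, so no 1 list stood out for it within groups. Procr went with the endothelial mean (0.85 and 0.85), and Plat did so less closely (0.65, and 0.34 for deviations). For deviations Plat had larger values with monocytes (-0.55), platelets (0.44), neurons (0.39), astrocytes (-0.39) and mural cells (-0.38), so no 1 list stood out for it within groups. Plaur and Thbs1 went with the monocyte mean (0.79 and 0.75, and 0.75 and 0.70 for deviations). They also had high values with the neutrophil mean (0.62 and 0.66, and 0.69 and 0.65 for deviations) and the mural mean (0.67 and 0.65, and 0.55 and 0.54 for deviations). Thbd had 0.75 with fibroblasts, 0.73 with mural cells, 0.63 with neutrophils and 0.58 with endothelium, and for deviations 0.50, 0.58, 0.38 and 0.50, so no 1 list stood out within groups. F10 had negative values with the microglial mean (-0.62, and -0.21 for deviations), border macrophages (-0.62, and -0.39) and platelets (-0.59, and -0.50). Plau had 0.50 with border macrophages (Spearman's rho = 0.57) and 0.51 with the oligodendrocyte lineage, where Spearman's rho was 0.16, and for deviations 0.55 and 0.38, with -0.62 for astrocytes. The part of these cells in the differences above was not tested beyond the fits with a marker mean as a term.

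**Figure D3:**
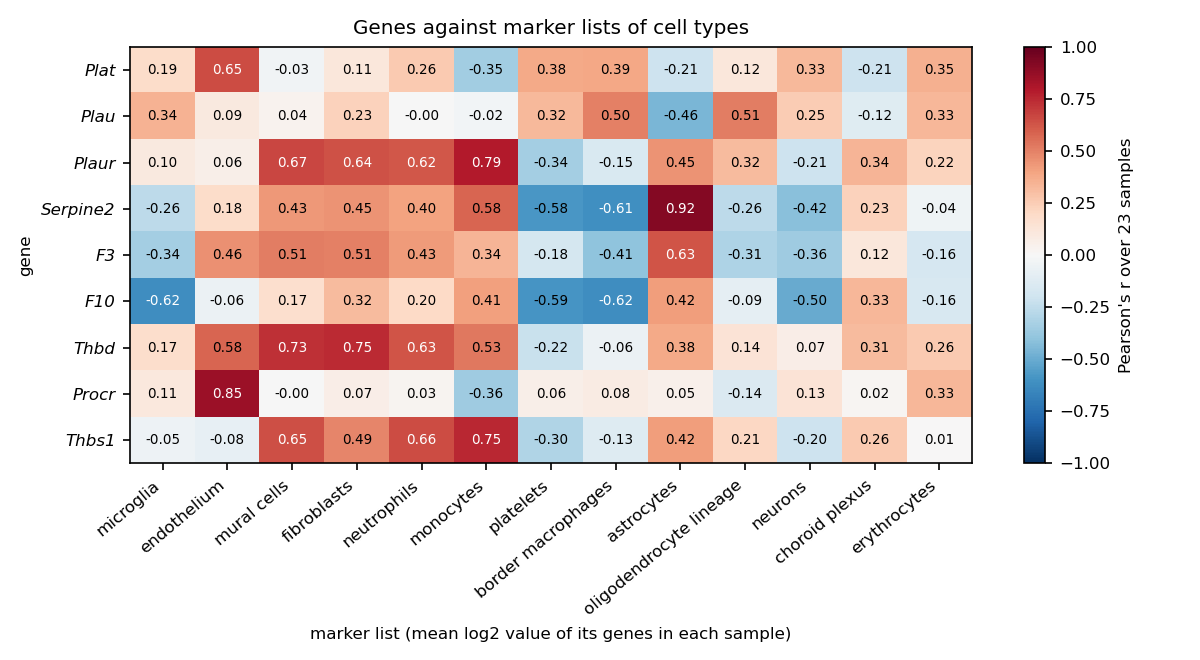
Pearson's r over 23 samples between each of the 9 genes (rows) and the mean log2 value of 13 marker lists (columns), from blue (-1) to red (1). Serpine2 with astrocytes (0.92), Procr with endothelium (0.85) and Plaur with monocytes (0.79) are the darkest red cells.

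The genes whose pattern over the 23 samples was most like each member were, by Pearson's r, S100b (0.95) and Sparcl1 (0.93) for Serpine2, and Lgals3 (0.93) and Hk3 (0.93) for Plaur. For Thbd they were Loxl2 (0.93) and Cald1 (0.92), and for F10 Nme2 (0.94) and Tubg1 (0.94). Plat was most like Ifitm10 (0.91) and Robo4 (0.88), and Procr most like Egfl7 (0.89), a gene of the endothelial list, and Erg (0.82). Plau was most like Snx8 (0.87) and Uap1l1 (0.85), F3 most like Cd24 (0.87) and Amot (0.83), and Thbs1 most like RT1-Ba (0.86) and Ahnak (0.84). Among the 36 pairs of the 9 genes r ranged from -0.49 to 0.75 with a median of 0.25. Plaur with Thbs1 (0.75), Serpine2 with F3 (0.73), Plaur with Thbd (0.72) and Plat with Procr (0.60) were the highest pairs.

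Beyond the 9 genes, 55 measured genes of 7 lists (plasminogen activation, fibrinolysis inhibitors, tissue factor pathway, coagulation factors, anticoagulant pathway, thrombin receptors, thrombospondins and their receptors) were examined. LPS against Sham called 5 of the 55 higher and 4 lower, where 10.2% and 7.56% of all genes were called. LPS/HI against Sham called 7 higher and none lower, where 5.3% and 3.48% of all genes were called. LPS/HI against LPS called 2 higher, where 1.22% of all genes were called higher, LPS/HI against NaCl/HI 1 higher, where 0.153% of all genes were called higher, and NaCl/HI against Sham none. LPS against NaCl/HI called 2 higher and 9 lower, where 5.32% and 3.66% of all genes were called. The median log2 difference of the 55 genes lay between -0.05 and 0.08 in the 6 comparisons. By list, 4 of the 10 plasminogen activation genes rose in LPS/HI against Sham (5.3% of all genes), while 2 rose and 2 fell in LPS against Sham (10.2% and 7.56%) and none passed in LPS/HI against LPS. Of the 8 anticoagulant genes 3 fell in LPS against NaCl/HI (3.66% of all genes) and 1 fell in LPS against Sham. None of the 3 other tissue factor pathway genes passed in any comparison. F7, 1 of them, had a Sham mean of -0.40, near the lowest value of all genes (-1.35). Other listed genes had low Sham means too, such as Fgb (-1.05), Klkb1 (-0.61), Plg (0.20), Cpb2 (0.43), Fga (1.49) and F9 (1.68), where sample medians were 7.75 to 7.82. Genes this low could hardly be called, so their lack of calls and their small differences do not show unchanged expression.

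A2m, the broad protease inhibitor alpha-2-macroglobulin, was called in all 3 comparisons of LPS/HI with another group. Its LPS/HI samples lay between 8.65 and 9.17, Sham between 7.92 and 8.32, LPS between 8.26 and 8.61 and NaCl/HI between 8.11 and 8.52, so LPS/HI overlapped with no other group. Over all genes 6.37% did not overlap between LPS/HI and Sham and 4.17% between LPS/HI and LPS. The share for LPS/HI and NaCl/HI is not given here. It rose by 0.79 ± 0.10 against Sham (adjusted p = 0.000755), 0.49 ± 0.10 against LPS (adjusted p = 0.0158) and 0.59 ± 0.10 against NaCl/HI (adjusted p = 0.0185). In the library sets these were 0.78 and 0.81, 0.39 and 0.62, and 0.49 and 0.68, and without LPS/HI replicate 2 the adjusted p were 0.00169, 0.0270 and 0.0314. The second call was lost without LPS replicate 4 (adjusted p = 0.0583) and the last without NaCl/HI replicate 1 or LPS/HI replicate 4 (adjusted p up to 0.0650), and both were lost with only the 2 groups fitted and with the exact Wilcoxon test, which called 0 of all genes in these comparisons. Anxa2, part of a plasminogen receptor, rose by 0.52 ± 0.14 in LPS/HI against Sham (adjusted p = 0.0240, and 0.0327 without LPS/HI replicate 2), a call lost without Sham replicate 1, 5 or 6 or LPS/HI replicate 4 (adjusted p up to 0.0574). Fgl2, a prothrombinase, rose by 0.46 ± 0.10 (adjusted p = 0.00858, and 0.0124 without LPS/HI replicate 2). Vwf, von Willebrand factor of endothelium, rose by 0.35 ± 0.06 against LPS (adjusted p = 0.00911, and 0.0174 without LPS/HI replicate 2), without overlap between the groups, as for 4.17% of all genes.

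After LPS alone, St14, the membrane protease matriptase, rose by 0.65 ± 0.10 against Sham (adjusted p = 0.000143) and was 0.57 ± 0.10 higher than in NaCl/HI (adjusted p = 0.000971). Eno1, an enolase that also binds plasminogen, rose by 0.42 ± 0.09 against Sham (adjusted p = 0.00191) and Fgl2 by 0.38 ± 0.10 (adjusted p = 0.0164). Lrp1, the endocytic receptor that clears activators bound to inhibitors, fell by 0.40 on the log2 scale against Sham (adjusted p = 0.00157). Its 5 LPS samples (15.37 to 15.60) lay below all Sham samples (15.71 to 16.05), where 13.9% of all genes did not overlap between these groups. Mrc2, which binds the urokinase receptor, fell by 0.33 (adjusted p = 0.00111) and Entpd1, the ectonucleotidase CD39, by 0.23 (adjusted p = 0.0155). Without LPS replicate 4 the rise of Fgl2 (adjusted p = 0.0602) and the fall of Entpd1 (adjusted p = 0.0509) were lost. Entpd1 was also lost with the exact Wilcoxon test, which called 3887 genes in this comparison. Against NaCl/HI the largest falls in LPS were Serpinb8 (-0.81, adjusted p = 0.0209), Anxa5 (-0.55, adjusted p = 0.00359) and Lrp1 (-0.51, adjusted p = 0.000414), and Adamts13, which cuts von Willebrand factor, was 0.23 higher (adjusted p = 0.0298). Serpinb8 was lost without LPS replicate 5 (adjusted p = 0.0545), and Adamts13 without LPS replicate 1, 2, 3 or 5 or NaCl/HI replicate 1, 2 or 5 (adjusted p up to 0.0637), and both were lost with only the 2 groups fitted.

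**Figure D4:**
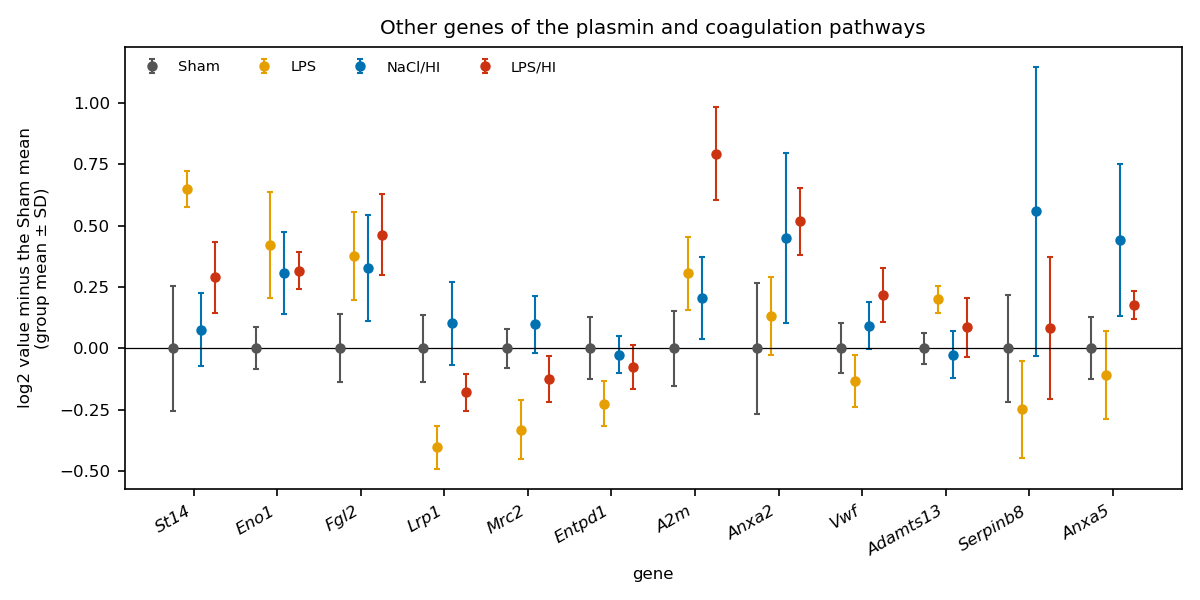
Group means (± SD) of the 12 other pathway genes named in the text, as log2 value minus the Sham mean (y axis), for Sham (grey), LPS (orange), NaCl/HI (blue) and LPS/HI (red). A2m in LPS/HI lies 0.79 above Sham, and Lrp1 in LPS 0.40 below it.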

How the data were processed

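Reads of the 23 libraries had been pseudoaligned by the authors with kallisto 0.48.0 to mRatBN7.2 transcripts and summed per gene. Genes with fewer than 10 counts had been left out, and the log2 values deposited by the authors are DESeq2 regularised log values after the authors' removal of 3 surrogate variables with limma. No counts were used here. Groups came from the labels. One limma 3.58.1 model (R 4.3.3) was fitted to all 23 samples and 20301 genes, with a variance trend and 16 residual degrees of freedom (19 less the 3 removed variables). P-values were adjusted over all genes by Benjamini-Hochberg, and a gene was called at an adjusted p under 0.05. Alternatives were another number of degrees of freedom, no trend, robust variances, the 2 groups alone, blocks, a filter of the lowest 25% of genes, 2 scalings, array weights, a fold above 2, an exact Wilcoxon test and leaving out each sample. Fits with a marker mean as a term were added after the data were seen, with lists picked after the correlations were seen: endothelium for Plat and Procr, fibroblasts for Thbd, astrocytes for Serpine2 and F3, monocytes for Plaur and Thbs1, and the isolated cells' own microglial list for Plau and F10, which was not the list closest to either gene. Members and lists were chosen with earlier results of these data known. All 9 members are named throughout, with up to 3 other pathway genes per direction and comparison by size of the difference among those called, and the 2 genes most like each member.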

Additional observations from a re-analysis of the deposited data

Results flagged for a closer look

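In 36 combinations of a gene and a group, 3 held a sample far from the others of its group by Dixon's test, which chance gives in about 1 of 20 groups. Plaur in Sham replicate 5 was 7.27, with the nearest Sham sample at 7.83. Procr in LPS replicate 5 was 7.78, with the nearest LPS sample at 8.05. F10 in NaCl/HI replicate 4 was 8.80, with the nearest NaCl/HI sample at 9.08.

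Plat is listed because its LPS difference was not the same with and without HI, by the interaction in limma (0.53, adjusted p = 0.0270). LPS against Sham gave -0.23 and LPS/HI against NaCl/HI 0.30, and these also differ by the injection, hemisphere and pooling.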

How the results depend on the processing

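The calls of F10 against Sham in LPS and in LPS/HI kept their direction and side of the threshold in every alternative but the fold above 2, and those of Plau and both of Thbd were lost besides only with a marker mean as a term and with the exact Wilcoxon test, which called 0 of all 20301 genes in those comparisons and so could keep none. No called difference turned its direction. Leaving aside the fold above 2, which no call passed, and the fits with a marker mean, 279 single-gene values kept their call and 93 lost it.

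The number of the 9 genes called moved by over 1.5 times as follows. With 19 residual degrees of freedom LPS/HI against NaCl/HI called 2 (Plat and F3) in place of 0, while the calls over all genes went from 41 to 243. Without the variance trend, and with median centring, LPS against Sham called 1 and LPS/HI against LPS 1, in place of 2 each. LPS/HI against LPS also called 1 with only those groups fitted and 1 with quantile normalization. The exact Wilcoxon test called 0 in LPS/HI against LPS and 0 in LPS against NaCl/HI, as it did over all genes. In LPS/HI against Sham the count of 3 moved less: Serpine2 was lost for a count of 2 without the trend, with median centring and with quantile normalization, Thbd was gained for 4 with 19 degrees of freedom, F3 was lost and Plaur and Thbd gained for 4 with the 2 groups alone, and Serpine2 and F3 were lost and Plaur gained for 2 with the Wilcoxon test. A fold above 2 left 0 in each comparison and in the interaction, where the main counts were 2, 3, 2, 3 and 1 in those with any call. Array weights raised the count to 3 (NaCl/HI vs Sham), 6 (LPS/HI vs Sham), 5 (LPS/HI vs LPS), 4 (LPS/HI vs NaCl/HI) and 3 (interaction), and over all genes to 652, 8566, 4059, 2932 and 2207, but their estimation did not converge, with a weight of 215.6 for LPS/HI replicate 2. Leaving out 1 sample at a time gave 1 to 2 (LPS vs Sham), 0 to 2 (NaCl/HI vs Sham), 1 to 4 (LPS/HI vs Sham), 1 to 2 (LPS/HI vs LPS), 0 to 1 (LPS/HI vs NaCl/HI), 2 to 3 (LPS vs NaCl/HI) and 0 to 1 (interaction). The cause was not tested.

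With the replicate number as a block the counts were 1 (LPS vs Sham), 2 (LPS/HI vs Sham), 1 (LPS/HI vs LPS), 3 (LPS vs NaCl/HI) and 0 (interaction). Same-numbered samples share only a number: the correlation of their deviations lay between -0.47 and 0.47 in 33 pairs (median -0.03), with 9 above 0.1, and 5 of 23 samples matched best with their own number. Depth is not given by log2 values, so what it limits is unknown.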
